A study of Mus musculus with 4 samples.

Results

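The chondroitin and dermatan sulfate synthesis genes examined here were Dse, Dsel, Chst14, Chst11, Chst12, Chst3, Ust, Csgalnact1, Chsy1 and Chpf, 10 of the 21951 protein-coding genes in the annotation. They were chosen by name as enzymes that build the glycan chain carried by Endocan, the product of Esm1. Peaks were counted in each deposited list over their promoters, taken as 1000 bp on either side of any annotated start site, and outside promoters over the gene bodies with 20 kb on either side. The libraries came from ATAC-seq, in which a transposase cuts open chromatin and the cut sites are sequenced. mG7080, a murine glioblastoma line, had been injected into the brains of Esm1 knockout (KO) mice or wild-type (WT) mice, with 2 tumors in each group. The labels give the strain as C57BL/6 and the methods as C57BL/6J. The host carried the knockout, and the injected line was the same in both groups. The labels describe resected tumor tissue and the methods freshly isolated tumor cells. The study's results name WTD and KOD cells, its terms for sphere cultures grown from such tumors, and which material was used is not settled. By the methods the mice were female and 6 to 8 weeks of age. The labels describe separate tumors, and no source ties a KO tumor to the WT tumor of the same number.

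Chondroitin sulfate is a chain of alternating glucuronic acid and N-acetylgalactosamine built in the Golgi on serine residues of core proteins such as Endocan. Csgalnact1 adds the first N-acetylgalactosamine that commits a linker to this chain, and Chsy1 with its partner Chpf extends it. Epimerases turn part of the glucuronic acid into iduronic acid, which makes dermatan sulfate, and sulfotransferases then place sulfate groups that decide which proteins the chain binds. In brain tumors such chains are known as a part of the extracellular matrix.

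The lists held 82975 and 85418 peaks in KO tumors 1 and 2, against 63000 and 100088 peaks in WT tumors 1 and 2. WT tumor 1 was the shallowest library, with a genome background of 4.41 read ends, against 6.03 to 6.85 in the other libraries. The height of a peak is the pileup of sequenced reads at its summit. It was recovered from the deposited values and taken here as a number of read ends. Heights are also given as multiples of the genome background, which allows for depth in part. On this scale the median peak stood at 5.14 and 4.92 times in KO tumors and 5.89 and 4.96 times in WT tumors. The tests of height used log2 heights centred on each library's median instead. All 6 glioma and progenitor markers had a promoter peak in every library, and 0 of 4 T cell markers had one in any. Of 8 endothelial markers, 1 and 2 had a promoter peak in KO tumors and 1 and 3 in WT tumors, and Pecam1, Cdh5, Tek, Esam and Emcn had none. Of 6 mature oligodendrocyte markers, 2 and 2 had one in KO tumors and 5 and 2 in WT tumors, with Mog, Mag and Mobp found in WT tumor 1 alone. Of 8 microglia and macrophage markers, 2 and 2 had one in KO tumors and 0 and 2 in WT tumors. Of 5 mural markers, 2 and 3 had one in KO tumors and 2 and 4 in WT tumors, of 5 astrocyte markers 2 and 4 in KO tumors and 2 and 2 in WT tumors, and of 6 neuron markers 4 and 5 in KO tumors and 5 and 5 in WT tumors. What part these cells or the depth had in the values below was not tested. Esm1 itself had 0 peaks in its promoter or gene body in any of the 4 libraries, so the lists do not show the genotype of the host and the groups rest on the sample titles. The deposited list of KO tumor 2 carried a sample name of another form than the other 3 lists, and its group too was taken from the title.

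All 10 genes had a promoter peak in all 4 libraries, where 60.6% of protein-coding genes did, so all 10 entered the test of peak height. None of the 10 promoters differed between KO and WT tumors by limma at an adjusted p under 0.05, where 2 of 13310 promoters (0.015%) did. Those were Myc and Dynlt1b, both taller in the tumors titled KO. The Myc promoter had 192 and 223 read ends in KO tumors and 64 and 89 in WT tumors, a log2 difference of 1.35 ± 0.094. Scaled by genome background the differences were 1.245 for Myc and 0.774 for Dynlt1b, and both were called. With quantile normalization both promoters also stayed taller in KO tumors, and only Myc was called. The direction changed only by fold over local background, where the differences were -0.46 for Myc and -0.0095 for Dynlt1b and neither was called. At an unadjusted p under 0.05 there was 1, Chst3, and 525 over all promoters, and the limma adjusted p was 0.998 for every one of the 10. The estimate was higher in KO tumors for 6 genes and lower for 4, with a median KO minus WT difference of 0.043 on the log2 scale, against -0.0049 over all promoters tested. With 2 tumors a group an exact permutation test cannot give a two-sided p below 1 in 3. The p-values and SEs rest largely on a spread that limma shared over all promoters, and they cover these tumors only.

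**Figure D1:**
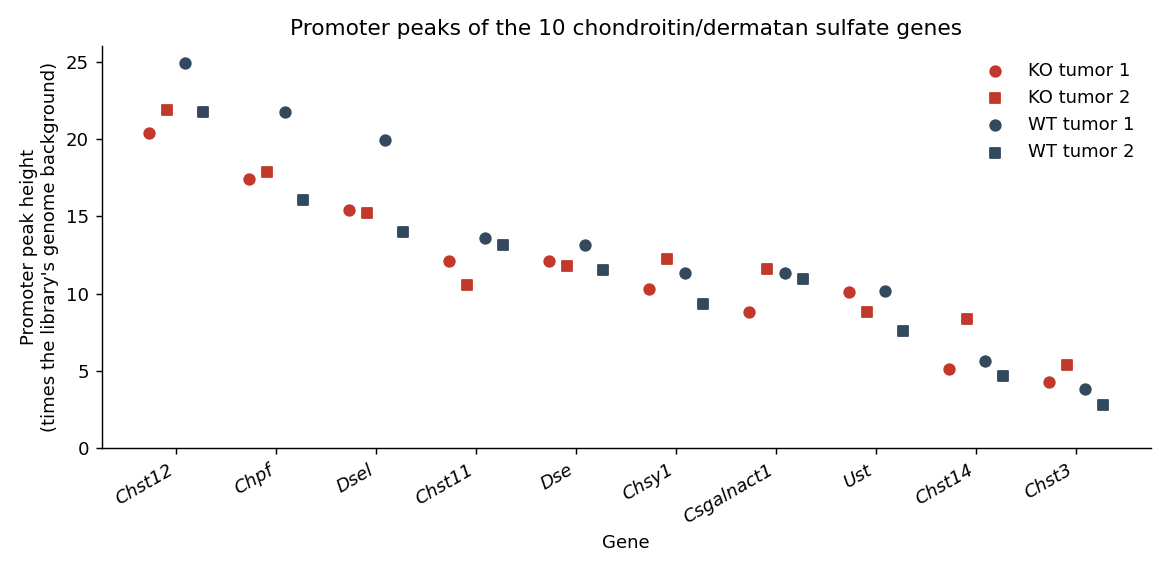
Promoter peak height of each gene (y axis, multiples of the library's genome background) in KO tumors (red) and WT tumors (dark blue), with circles for tumor 1 and squares for tumor 2 and genes ordered by their mean. Chst12 averaged 22.2 times background and Chst3 4.08 times, and the KO and WT points overlap for all genes but Chst3 and Chst11.

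Of the enzymes that start and lengthen the chain, Chpf had a tall promoter, at percentile 83.8 of all promoters tested, while Chsy1 and Csgalnact1 lay below the middle, at percentiles 31.3 and 30.4. Chpf, the polymerizing factor, had promoter heights of 105 and 120 read ends in KO tumors and 96 and 110 in WT tumors. Chsy1, a chondroitin synthase, had 62 and 82 in KO tumors and 50 and 64 in WT tumors. Csgalnact1, which initiates the chain, had 53 and 78 in KO tumors and 50 and 75 in WT tumors. For none of these genes were the KO and WT heights separate once scaled to background. The KO minus WT log2 differences were 0.024 ± 0.10 for Chpf, 0.23 ± 0.16 for Chsy1 and -0.033 ± 0.17 for Csgalnact1 (limma estimate ± SE, n = 2 each). The 95% intervals allowed -0.19 to 0.24 for Chpf, -0.099 to 0.56 for Chsy1 and -0.39 to 0.32 for Csgalnact1. The promoter of Chpf overlapped that of Tmem198, so its peak belongs to both genes. The local background around the Chpf peak was also the highest of the 10, at 3.76 and 4.23 times the genome background in KO tumors and 4.12 and 3.88 times in WT tumors, against library medians of 1.96 to 2.11 over all promoters.

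The epimerases showed the same lack of a separation. Dse, the dermatan sulfate epimerase, had 73 and 79 read ends in KO tumors and 58 and 79 in WT tumors. Dsel, its paralog, had 93 and 102 in KO tumors and 88 and 96 in WT tumors. These ranges overlapped for both genes after scaling to background. The log2 difference was 0.063 ± 0.13 for Dse (95% interval -0.22 to 0.34) and -0.020 ± 0.11 for Dsel (-0.26 to 0.22), by limma with n = 2 each. Dse had the steadiest promoter of the 10, with a coefficient of variation of 5.82% over the 4 libraries.

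Among the sulfotransferases the promoters of the 4-O enzymes spanned most of the range. Chst12, a chondroitin 4-O-sulfotransferase, had the tallest promoter of the 10, with 123 and 147 read ends in KO tumors and 110 and 149 in WT tumors. Chst11, the other chondroitin 4-O-sulfotransferase of this set, had 73 and 71 in KO tumors and 60 and 90 in WT tumors. Chst14, which adds the same sulfate to dermatan sulfate, had 31 and 56 in KO tumors and 25 and 32 in WT tumors. The raw heights overlapped for all 3 genes. Scaled to background, Chst11 stood at 12.1 and 10.6 times in KO tumors and 13.6 and 13.1 times in WT tumors, with no overlap. On that scale the median KO minus WT log2 difference over all promoters tested was itself -0.11. The log2 difference was -0.13 ± 0.14 for Chst11 (95% interval -0.43 to 0.16), -0.032 ± 0.094 for Chst12 (-0.23 to 0.17) and 0.46 ± 0.28 for Chst14 (-0.13 to 1.04), by limma with n = 2 each. Without KO tumor 1 the Chst11 difference was -0.26 and without WT tumor 1 -0.22, against -0.0057 without KO tumor 2 and -0.051 without WT tumor 2. The Chst14 estimate was carried by KO tumor 2, which stood at 8.34 times background while KO tumor 1 and both WT tumors lay between 4.67 and 5.66 times. Without KO tumor 2 the Chst14 difference was 0.14, and without KO tumor 1 it was 0.78.

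Chst3, the chondroitin 6-O-sulfotransferase, had the lowest promoter of the 10 and the largest estimate. Its heights were 26 and 36 read ends in KO tumors, against 17 and 19 in WT tumors. Both KO tumors lay above both WT tumors, also as multiples of background, at 4.32 and 5.36 times in KO tumors and 3.85 and 2.77 times in WT tumors. The log2 difference was 0.66 ± 0.31 (95% interval 0.0080 to 1.32, limma adjusted p = 0.998, n = 2 each). Chst3 and Chst11 were the 2 genes of 10 whose scaled heights did not overlap, where 31.2% of all promoters tested had none, and the direction differed between them. The counting error was wide at these heights, with 95% Poisson intervals of 17.0 to 38.1 and 25.2 to 49.8 read ends in the KO tumors and 9.90 to 27.2 and 11.4 to 29.7 in the WT tumors. These intervals cover counting error only. Chst3 has 3 annotated starts, and the tallest peak of KO tumor 2 lay at the middle one. At the first start the heights were 26 and 31 in KO tumors and 17 and 19 in WT tumors. With promoters of 2500 bp on either side of a start, where a further peak enters, the Chst3 difference turned to -0.13. At a stricter −log10 q of at least 5 the Chst3 promoter lost its peak in both WT tumors.

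Ust, the uronyl 2-O-sulfotransferase, had 61 and 59 read ends in KO tumors and 45 and 52 in WT tumors. Both KO heights were above both WT heights before scaling, but as multiples of background they overlapped, at 10.1 and 8.79 times in KO tumors and 10.2 and 7.59 times in WT tumors. The log2 difference was 0.21 ± 0.19 (95% interval -0.19 to 0.61, limma, n = 2 each). It was 0.076 without KO tumor 1 and 0.10 without WT tumor 2, against 0.34 without KO tumor 2 and 0.31 without WT tumor 1.

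**Figure D2:**
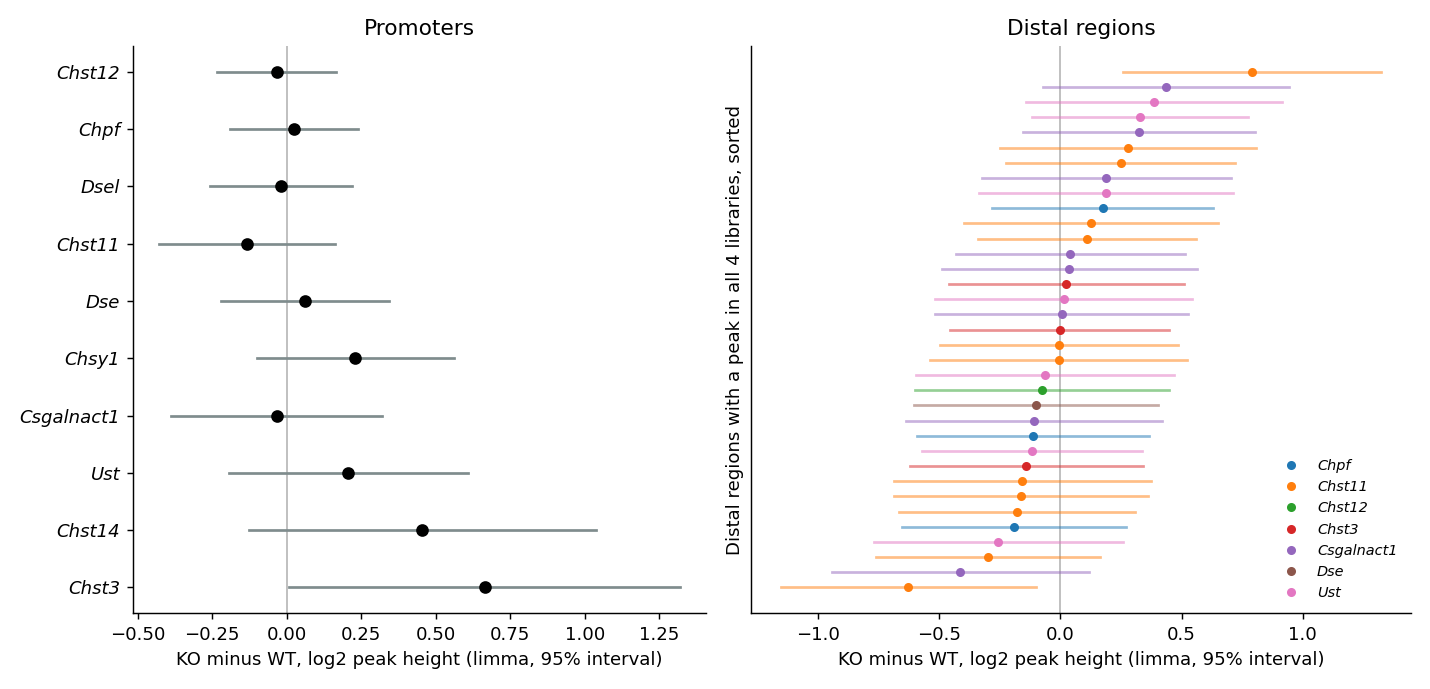
KO minus WT difference in log2 peak height with its 95% limma interval (x axis) for the 10 promoters (left, ordered by height) and for the 35 distal regions with a peak in all 4 libraries (right, sorted by estimate and colored by gene). None passed at an adjusted p under 0.05, and the widest separation from 0 was 0.79 for a Chst11 intron region.

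The promoters differed more between genes than between libraries. As mean multiples of background over the 4 libraries, Chst12 stood at 22.2 ± 1.90, Chpf at 18.3 ± 2.44 and Dsel at 16.1 ± 2.60 (SD, n = 4). Chst11 followed at 12.4 ± 1.34 and Dse at 12.1 ± 0.707, then Chsy1 at 10.8 ± 1.25, Csgalnact1 at 10.7 ± 1.28 and Ust at 9.18 ± 1.24. Chst14 at 5.96 ± 1.64 and Chst3 at 4.08 ± 1.07 came last. Only the step between Dsel and Chst11 separated the ranges of neighbors in this order, and every other pair of neighbors overlapped. Compared within each library, Chst12 exceeded Chpf, Chpf exceeded Dsel, Ust exceeded Chst14 and Chst14 exceeded Chst3 in all 4 libraries. Among all promoters tested, Chst12 was at percentile 95.9, Chst14 at percentile 6.61 and Chst3 at percentile 0.66.

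The promoter sequences are shown for the tallest promoters that were not shared with another gene, Chst12 and Dsel, for the lowest, Chst14 and Chst3, and for Chsy1, which shares a motif with Chst14. Each is the stretch before the RefSeq start in build GRCm38.p6, cut at the first annotated exon, and capitals mark GGGCGG (the GC box read by SP and KLF factors) or CACGTG (the E-box read by MYC and MAX) on either strand.
Chst12 (chr5:140505359-140505549, + strand): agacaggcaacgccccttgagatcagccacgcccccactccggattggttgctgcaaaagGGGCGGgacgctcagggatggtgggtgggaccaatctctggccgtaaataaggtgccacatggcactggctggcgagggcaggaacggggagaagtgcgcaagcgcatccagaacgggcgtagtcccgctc
Dsel (chr1:111864919-111865168, - strand): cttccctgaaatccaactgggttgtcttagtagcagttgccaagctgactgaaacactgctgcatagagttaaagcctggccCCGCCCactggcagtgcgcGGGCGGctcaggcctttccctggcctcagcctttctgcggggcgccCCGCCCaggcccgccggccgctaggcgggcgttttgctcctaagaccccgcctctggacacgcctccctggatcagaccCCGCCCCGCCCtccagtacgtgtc
Chsy1 (chr7:66109242-66109491, + strand): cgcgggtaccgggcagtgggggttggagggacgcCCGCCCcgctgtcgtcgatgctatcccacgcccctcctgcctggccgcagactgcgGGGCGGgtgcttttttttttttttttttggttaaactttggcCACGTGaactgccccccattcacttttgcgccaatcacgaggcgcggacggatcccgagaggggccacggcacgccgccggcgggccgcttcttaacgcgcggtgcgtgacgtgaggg
Chst14 (chr2:118926247-118926495, + strand): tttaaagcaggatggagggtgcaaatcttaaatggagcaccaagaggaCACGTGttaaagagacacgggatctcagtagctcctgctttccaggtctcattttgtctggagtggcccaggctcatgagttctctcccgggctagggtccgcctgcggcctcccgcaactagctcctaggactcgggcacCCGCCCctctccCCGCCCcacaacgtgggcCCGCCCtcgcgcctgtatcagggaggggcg
Chst3 (chr10:60219261-60219510, - strand): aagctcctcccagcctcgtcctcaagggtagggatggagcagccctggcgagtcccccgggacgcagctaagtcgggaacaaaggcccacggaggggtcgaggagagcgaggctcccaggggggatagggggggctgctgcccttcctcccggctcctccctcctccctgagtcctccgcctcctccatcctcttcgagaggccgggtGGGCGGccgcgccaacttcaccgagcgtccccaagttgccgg

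RefSeq promoter windows, of 250 bases before and 50 after the start, were matched for 9 of the 10 genes, with Csgalnact1 unmatched. All 9 held the GC box GGGCGG, as did 35.7% of all 32851 promoter windows and 62.6% of those of genes open in all 4 libraries. Dsel had the most, with 6 copies counting overlaps, and Chst3 had 1. CACGTG was found in the windows of Chsy1 and Chst14, and in 7.15% of all windows and 9.73% of those of open genes. CAGCTG, an E-box of proneural factors, was found in Chst11 and Chsy1, against 16.3% of all windows and 15.2% of those of open genes. The ETS letters CCGGAAG were found in Dse, against 8.86% of all windows and 16.4% of those of open genes. None of the 9 held CATATG, read by OLIG and NEUROD factors and found in 3.91% of all windows and 1.77% of open ones. TGACTCA, read by AP-1 and found in 5.20% of all windows and 3.31% of open ones, was absent too. The NRF1 letters GCGCATGC, found in 2.71% of all windows and 5.07% of open ones, were also absent from the 9. So was ATGCAAAT, read by OCT factors and found in 1.74% of all windows and 1.21% of open ones. The CTCF core, spelled CCACCAGG or CCACTAGG, was absent as well, and was found in 2.88% of all windows and 3.34% of open ones. The G and C content of the 9 windows ran from 63.3% in Chst14 to 75.3% in Dse, against a median of 61.0% over open genes.

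Outside promoters, 112 distal regions lay in the windows of the 10 genes, of 102142 in the series. A distal region is a merged peak that overlaps no promoter of any annotated gene. KO tumors had 75 and 73 of them and WT tumors 50 and 86. WT tumor 1, the shallowest library, had the fewest, and 16 regions were missing from it alone. The 10 windows held 0.116% and 0.112% of each KO library's distal regions and 0.112% and 0.105% of each WT library's. Of the 112 regions, 35 (31.3%) had a peak in all 4 libraries, where 32.3% of all distal regions did. Introns held 86 of the regions, exons 3, and the flanks 6 upstream and 17 downstream.

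**Figure D3:**
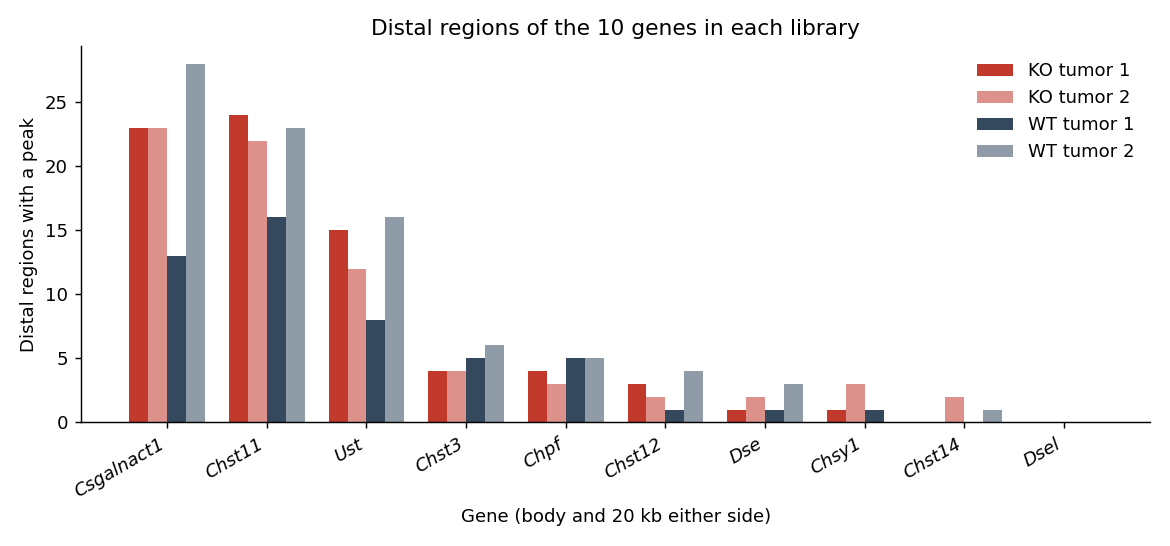
Number of distal regions with a peak (y axis) in the window of each gene, in KO tumors (red, tumor 2 paler) and WT tumors (blue, tumor 2 paler). Csgalnact1, Chst11 and Ust hold most regions, and WT tumor 1 has fewer than the other libraries in these genes.

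Csgalnact1 held 35 distal regions, Chst11 33 and Ust 18, and Dsel held none. Chst3 had 6, Chst12 and Chpf 5 each, Chsy1 4, and Dse and Chst14 3 each. Per 100 kb of window, Chst11 had 13.2 regions, percentile 97.9 of protein-coding genes, against a median of 3.95. Chpf had 11.2 per 100 kb, percentile 94.5, but its window also holds Asic4, Obsl1 and Tmem198. Csgalnact1 reached 8.37 per 100 kb and Ust 5.08 per 100 kb in windows of 418 and 354 kb.

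**Figure D4:**
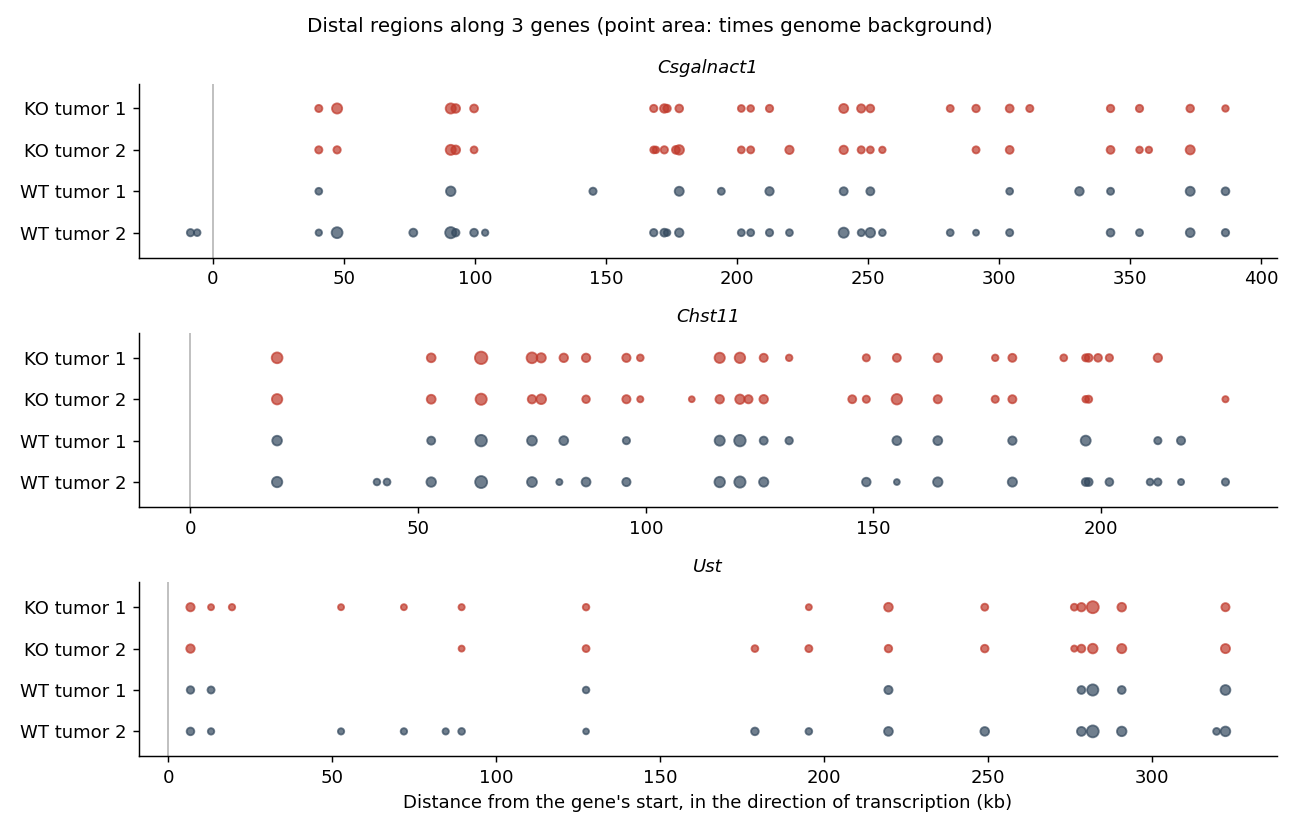
Distal regions along Csgalnact1, Chst11 and Ust by distance from the gene's start in kb (x axis), with a row for each library, KO above WT, and point area in proportion to height over genome background. Chst11 has 12 regions in all 4 libraries, Csgalnact1 8 and Ust 7, spread along the gene bodies.

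None of the 35 distal regions tested passed at an adjusted p under 0.05 by limma, where 12 of 32984 (0.0364%) did, all higher in KO tumors. The calls were also all higher when scaled by genome background (10) and with quantile normalization (8). By fold over local background 2 were higher and 5 lower. At an unadjusted p under 0.05 there were 2 of the 35, both in Chst11 and described next, and 1162 (3.52%) of all distal regions tested. The estimate was above 0 in 17 of the 35, with a median of -0.0036 on the log2 scale, against 0.0050 over all distal regions tested. For regions limma set each SE from the spread shared by regions of like height, not from the region's own heights. The region with the lowest p lay in an intron of Chst11 at chr10:83140264-83141012, 155 kb past the start. This region also overlapped 1700025N21Rik, annotated as antisense, whose start lay 1.4 kb away. Its heights were 30 and 57 read ends in KO tumors and 27 and 18 in WT tumors. Both KO tumors were above both WT tumors in read ends, but as multiples of background, at 4.98 and 8.49 times in KO tumors and 6.12 and 2.63 times in WT tumors, they overlapped. The log2 difference was 0.79 ± 0.27 (limma adjusted p = 0.973, n = 2 each), and the range of adjusted p over its alternatives was 0.0128 to 1.00. Without WT tumor 1, so that the lone WT tumor was assumed to vary like the others, the difference was 1.42 with a limma adjusted p of 0.0128, and without WT tumor 2 it was 0.081. Without KO tumor 2 it was 0.34. As multiples of background, 13 of the 35 regions had no overlap between KO and WT tumors, as did 31.0% of all distal regions tested. A second Chst11 intron region, at chr10:83181825-83182406, pointed the other way, with 24 and 23 read ends in KO tumors and 34 and 33 in WT tumors and no overlap on either scale. The log2 difference there was -0.63 ± 0.27 (limma adjusted p = 1.00, n = 2 each). Without WT tumor 1 it was -0.27, and without WT tumor 2 it was -1.07 with a limma adjusted p of 0.170. The region was named after its values were seen.

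None of the tallest regions shared by all 4 libraries passed the test either. A region downstream of Chst3 at chr10:60172518-60173686 had 67 and 73 read ends in KO tumors and 51 and 82 in WT tumors. It averaged 11.4 times background, against 4.08 times at the Chst3 promoter. The tallest region of Chst11 lay in an intron at chr10:83048734-83049939, with 72 and 65 read ends in KO tumors and 45 and 76 in WT tumors. That of Ust, in an intron at chr10:8236480-8237411, had 67 and 48 in KO tumors and 43 and 75 in WT tumors. In read ends the KO and WT ranges overlapped at all 3, though as multiples of background the Chst3 region stood at 11.1 and 10.9 times in KO tumors, below both WT tumors, the lower of which stood at 11.6 times. In Csgalnact1 the tallest, in an intron at chr8:68643850-68644807, had 48 and 53 in KO tumors and 31 and 66 in WT tumors. Around Chpf the tallest lay inside Asic4 at chr1:75457823-75459659, with 56 and 65 in KO tumors and 38 and 64 in WT tumors. Chst12 had 1 shared region, downstream at chr5:140536081-140537095, with 29 and 45 in KO tumors and 28 and 44 in WT tumors. Dse had 1, in an intron at chr10:34186558-34187000, with 29 and 21 in KO tumors and 17 and 35 in WT tumors. At these 4 regions too the ranges overlapped. Chst14 and Chsy1 had no distal region in all 4 libraries.

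The sequences at the summits of 3 of these regions are shown because they are the tallest shared region of the set, the tallest of Chst11, and the one with the lowest p. Each is 151 bases of GRCm38.p6 centered on the summit, on the + strand, and capitals mark TGACTCA, the letters read by AP-1.
Chst3 downstream (chr10:60173173-60173323): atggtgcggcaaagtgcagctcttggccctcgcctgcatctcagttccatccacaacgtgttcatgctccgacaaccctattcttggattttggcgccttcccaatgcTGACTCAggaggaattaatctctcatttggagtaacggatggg
Chst11 intron, tallest (chr10:83049350-83049500): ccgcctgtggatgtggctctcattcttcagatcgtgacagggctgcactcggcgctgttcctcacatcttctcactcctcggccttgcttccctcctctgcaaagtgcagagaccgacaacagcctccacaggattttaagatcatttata
Chst11 intron, lowest p (chr10:83140413-83140563): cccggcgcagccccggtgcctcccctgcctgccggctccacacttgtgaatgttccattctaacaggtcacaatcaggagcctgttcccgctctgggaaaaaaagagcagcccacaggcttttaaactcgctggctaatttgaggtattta

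Only the Chst3 sequence held TGACTCA, and none of these 3 held any other of the letters searched. Within 100 bases of the summit, TGACTCA was found at 14 of the 112 distal regions (12.5%), against 9.71% of all distal regions. CAGCTG was found at 25 (22.3%), against 16.9%, and CATATG, an E-box of OLIG and NEUROD factors, at 5 (4.46%), against 6.54%. GGGCGG was found at 6 (5.36%), against 5.92%, and CACGTG at 4 (3.57%), against 3.38%. The NRF1 letters were found at 2 (1.79%), against 0.486%, and the CTCF core at 1 (0.893%), against 2.88%. The ETS and OCT letters were found at 0, against 1.01% and 1.90%.

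Of the 112 regions, 4 (3.57%) had a peak in both KO tumors and neither WT tumor, where 1.83% of all distal regions did. Those 4 were chosen after their values were seen, with 3 in introns of Chst11 and 1 in an intron of Ust. The tallest lay in Chst11 at chr10:83062367-83062686, with 40 and 49 read ends in the KO tumors. Its folds over local background, 3.19 and 3.78, were at percentiles 32.4 and 57.2 of their lists. The other Chst11 regions, at chr10:83084019-83084560 and chr10:83162003-83162480, had 21 and 20 and 20 and 27 read ends in KO tumors. The Ust region, at chr10:8242447-8242716, had 22 and 20. The lowest heights called were 15 and 16 read ends in KO tumors and 13 and 16 in WT tumors, so the last 3 lay close to the limit of calling. Regions without a peak have no recovered height and may hold reads below that limit.

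Conversely, 2 regions (1.79%) had a peak in both WT tumors and neither KO tumor, where 1.6% of all distal regions did. One lay in an exon of Chpf at chr1:75477305-75477865, with 50 and 66 read ends in the WT tumors. Its folds over local background, 2.73 and 2.48, were at percentiles 5.79 and 8.91 of their lists. The other lay downstream of Chst11 at chr10:83202613-83203490, with 23 and 20 read ends in the WT tumors. Leaving out a library loosens the rule, so these counts could then only stay or rise, and the rise does not measure their stability. The matching shares over all distal regions were not taken. The KO count became 16 without KO tumor 1, 8 without KO tumor 2 and 20 without WT tumor 2, and the WT count became 8 without KO tumor 1, 16 without WT tumor 1 and 5 without WT tumor 2.

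Most other genes of the pathway also had open promoters. All 7 linkage genes, which build the linker between core protein and chain, had a promoter peak in all 4 libraries, as did the 3 further polymerisation genes, the 6 nucleotide sugar genes and the 18 genes of heparan sulfate synthesis. No gene in any of these lists, or in those below, passed limma in either direction. The median KO minus WT log2 differences were -0.048 for the linkage genes, 0.0076 for polymerisation, 0.039 for nucleotide sugars and -0.070 for heparan sulfate, against 0.043 for the 10 genes.

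Of the 3 other chondroitin sulfotransferases, Chst7 and Chst15 had a promoter peak in all 4 libraries and Chst13 in none. Chst7, a 6-O-sulfotransferase like Chst3, had 25 and 50 read ends in KO tumors and 16 and 22 in WT tumors, with both KO tumors higher. The Chst7 promoter averaged 4.61 times background, at percentile 1.98 of all promoters tested. KO tumor 2 stood at 7.45 times background, while KO tumor 1 and both WT tumors lay between 3.21 and 4.15 times. The log2 difference of Chst7 was 0.81 ± 0.32 (limma adjusted p = 0.998, n = 2 each), and this gene was named after its values were seen. So were Chsy3, a chondroitin synthase, and Galns, a lysosomal sulfatase, the other genes of the chondroitin lists at an unadjusted p under 0.05. Over all promoters tested, 3.94% were under that limit by limma. Chsy3 had 90 and 97 read ends in KO tumors and 96 and 113 in WT tumors, and its log2 difference was -0.26 ± 0.10 (limma adjusted p = 0.998, n = 2 each). Galns had 112 and 140 in KO tumors and 90 and 109 in WT tumors, and its log2 difference was 0.24 ± 0.098 (limma adjusted p = 0.998, n = 2 each). As multiples of background the Galns heights overlapped, at 18.6 and 20.9 times in KO tumors and 20.4 and 15.9 times in WT tumors. The median of Chst7 and Chst15 was 0.39, with Chst15 itself at -0.022. Of the 6 sulfate donor genes in the annotation, 5 were open in all 4 libraries and Papss2, a synthase of the donor, only in KO tumor 2, with a median of 0.037. Of the 11 genes of chain breakdown, 10 were open in all 4 and Hyal1, a hyaluronidase, only in KO tumor 2, with a median of 0.012.

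Of the core proteins 7 of 14 were open in all 4 libraries, where 60.6% of protein-coding genes were, and the median difference among those 7 was 0.12. Dcn, Cspg4, Esm1 and Srgn had no promoter peak in any library. Bgn and Cd74 had one in KO tumor 2 alone, with 24 and 30 read ends. Cd44, a hyaluronan receptor that can carry chondroitin sulfate, had 29 and 42 read ends in KO tumors and 21 in WT tumor 2, with no peak in WT tumor 1.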

How the data were processed

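The authors deposited 1 ATAC-seq peak list per library, 2 KO and 2 WT, so peaks were called per sample. The submitters' notes name MACS2, HOMER and mm10, without versions, while the study's methods describe Bowtie2 on GRCm38.p6 and Genrich. Any shift of reads for transposase binding was not stated in the sources read. For every peak the deposited columns give a score, a summit position, a ratio of height to local background (fold), and the p-value and q-value as −log10, all written by the authors' caller. The lowest −log10 q was 1.30.

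The deposited lists hold no read counts. Whole heights were recovered from the fold and the Poisson p-value, within 0.001 of −log10 p, in all 331481 peaks. The lowest background of a library was read as its genome background. This measure of depth differed by up to 1.55 times between libraries.

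Gene models were GENCODE M21 basic transcripts on GRCm38. Peaks sharing at least 1 bp were merged. Log2 heights of features with a peak in all 4 libraries were centred on each library's median and compared by limma 3.58.1 in R 4.3.3 (KO minus WT, moderated variance with a trend, Benjamini-Hochberg adjustment over all features, threshold 0.05). Python 3.11.15, pyranges 0.1.4, pysam 0.24.0 and scipy 1.17.1 did the rest. Height recovery and limma were tested on simulated data. Alternatives varied promoter width, peak threshold, scaling, overlap, the replicate block and the libraries.

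The genes and lists were chosen with earlier results of these data known. All 10 genes were named, with the tallest shared distal region of each. From the other lists genes were named where they passed limma, were open in 1 group only or lacked a peak in any library, and exceptions are stated. The check for pairing by tumor number is in the closing section.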

Additional observations from a re-analysis of the deposited data

How the results depend on the processing

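None of the 10 promoters was called by limma under any alternative, and all 10 kept a peak in all 4 libraries except under a −log10 q of at least 5 and equal numbers of peaks, where 9 did and Chst3 was the exception. Of 190 alternative values for the 10 promoters and the pair of Chst11 regions, 179 kept their direction and call, 10 changed sign and 1 became a call. Scaling by genome background turned Dse to -0.044 and Chpf to -0.083, with a median shift of all promoters of -0.11. Fold over local background turned Dsel to 0.039, quantile normalization turned Chst12 to 0.011, and promoters of 2500 bp turned Chst3 to -0.13. Leaving out 1 tumor gave Dsel between -0.17 and 0.12, with 0.021 without KO tumor 2 and 0.12 without WT tumor 1. It turned Csgalnact1 to 0.14 without KO tumor 1 and 0.049 without WT tumor 2, and gave Chpf between -0.088, without WT tumor 2, and 0.13. The cause was not tested.

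Over all promoters tested, 2 were called, 4 with promoters of 500 or 2500 bp, with equal numbers of peaks, with summits inside the promoter, at the stricter −log10 q and with missing heights set to the lowest called, 10 scaled by genome background (3 higher and 7 lower in KO tumors), 1 with quantile normalization (higher) or fold over local background (lower), 0 without a trend, and 3 to 229 when 1 tumor was left out, with 229 without KO tumor 1. Without a trend, the count at an unadjusted p under 0.05 was 498. Over all distal regions 12 were called, 5 at the stricter −log10 q, 6 with 50% of the region covered, 7 by fold over local background (2 higher and 5 lower), 0 with missing heights set to the lowest called (2976 at an unadjusted p under 0.05), and 5 to 54 when 1 tumor was left out. Among distal regions of the 10 genes, 0 or 1 was called when 1 tumor was left out, the 1 being the Chst11 intron region without WT tumor 1. With 50% of the region covered, 19 were in all libraries and 7 in KO tumors only. Over all distal regions, 19950 were in all libraries under that rule, against 32984 without it. The KO-only and WT-only shares over all distal regions were not taken under the alternatives. WT-only regions fell to 1 without flanks and to 1 with every annotated transcript start, an alternative added after seeing the data. Leaving out 1 tumor, which can only keep or add such regions, gave 4 to 20 KO-only and 3 to 16 WT-only regions.

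No source pairs the tumors by number, and the difference between tumors 1 and 2 in KO correlated with that in WT at -0.20 over promoters and -0.34 over regions. With the replicate block, 12 promoters and 7 distal regions were called over all features and none of the 10 genes or their regions. With the numbers crossed, added after seeing the data, 35 promoters and 68 distal regions were called, again none of the 10 genes or their regions. With 2 tumors a group, depth limits what can be said of Chst3, Chst14 and the regions near the lowest height called.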
